A study of Mus musculus with 4 samples.

Results

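Inhibitory co-receptors set the threshold at which a B cell responds to antigen, and 8 genes of this group were followed in lymph node B cells of miR-146a transgenic and wild type mice. They were found by their symbols in the platform annotation (Cd22, Cd72, Siglecg, Ptpn6, Lair1, Cd5, Fcrl1 and Fcrla) and held 14 of the 45037 probe sets compared, among 17097 genes in all; of several probe sets of a gene, the one with the greatest average signal stands for it. Total RNA came from 2 wild type (WT) mice and 2 mice carrying a miR-146a transgene (TG), all males of the Balb/C background aged 6 to 8 weeks, with 1 Affymetrix array per mouse. The B cells had been enriched from lymph nodes by magnetic removal of other cells, followed by removal of dead cells. The sources used here do not say which promoter drives the transgene or in which cells. No probe set carried the symbol Mir146 (0 of 45037), so the level of the transgene's product was not checked.

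The microRNA that the transgene over-expresses is shown because the labels separate the groups by it. Its mature strand, from RefSeq (GRCm38.p6, chr11:43374435-43374456 on the minus strand), has its seed, bases 2 to 8, in capitals.
mmu-miR-146a-5p: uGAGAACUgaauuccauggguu

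When antigen cross-links the B cell receptor, the kinase Lyn also phosphorylates inhibitory tyrosine motifs in the tails of co-receptors. These motifs recruit the phosphatase SHP-1, the product of Ptpn6, which removes phosphate from the activating proteins nearby. CD22 and Siglec-G bind sialic acids, CD72 is a lectin-like receptor for the semaphorin CD100, CD5 is a scavenger-type receptor of T cells and B-1a cells, and LAIR-1 binds collagen. FCRL1 and FCRLA belong to the Fc receptor-like family but stand apart from the name of the group: FCRL1 carries activating-type motifs and FCRLA is an intracellular protein that binds immunoglobulin.

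The deposited values are log2 signals, so a difference of 1 is a doubling. Of the 8 genes, 6 had lower signals in both TG arrays than in both WT arrays, by 0.53 to 1.28 log2 units, and the other 2, Lair1 and Cd5, had higher signals in both TG arrays. Over all probe sets 31.4% were lower in TG without overlap and 17.7% were higher. Among the 27022 probe sets with a mean above 4.10, a filter that all 14 member probe sets passed, 39.8% were lower without overlap. The median difference of the 8 genes was -0.92, against -0.05 over all genes and -0.12 over the probe sets above that filter. None of the 8 passed an adjusted p of 0.05 by limma over all probe sets, and 6 of 8, all lower in TG, had an unadjusted limma p under 0.05, as had 10.5% of all probe sets in that direction. In the same fit 0.00888% of all probe sets passed as lower and 0.0377% as higher. In data simulated from these arrays the fit recovered 10% of falls of 1 log2 unit and 82% of falls of 2. The members' differences lie mostly near the first of these sizes. The simulation had independent noise, 50 changed probe sets of each size and no shift of a whole array. These rates therefore may not hold in the real arrays, where the number of differing probe sets is not known. In bulk RNA, fewer B cells in a preparation and less of a transcript per B cell cannot be told apart.

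**Figure D1:**
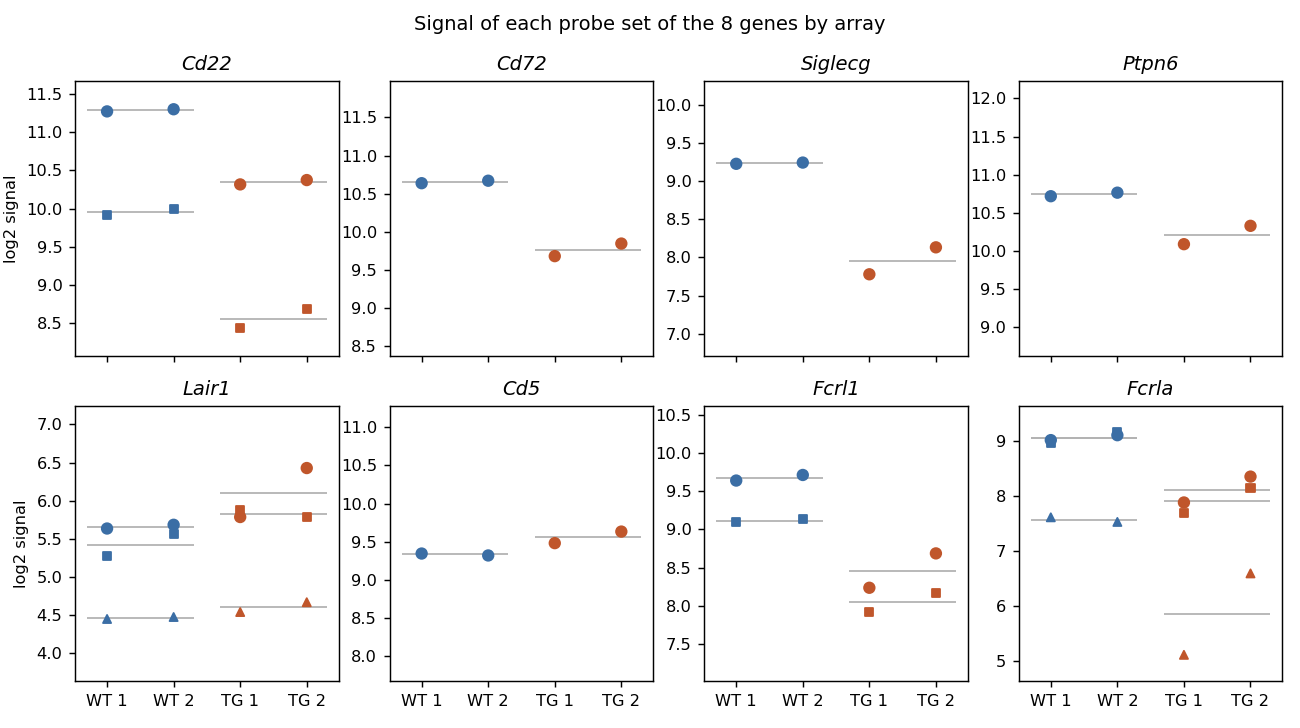
Log2 signal (vertical axis) of every probe set of the 8 genes on the 4 arrays (horizontal axis), with WT in blue, TG in orange, a marker shape for each probe set (circle: the brightest) and a grey bar at each group mean. Panels have their own vertical range; both TG arrays lie below both WT arrays for Cd22, Cd72, Siglecg, Ptpn6, Fcrl1 and Fcrla, and above them for Lair1 and Cd5.

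The sialic acid-binding receptors were both lower in the transgenic arrays. Cd22 (1419768_PM_at), the B cell receptor's best known inhibitory partner, read 11.27 and 11.30 in the WT mice and 10.32 and 10.37 in the TG mice. The groups were separated by 0.90, far more than the distance between the mice of either group. The difference was -0.94 (SE 0.10, a 1.92-fold lower signal, limma adjusted p = 0.0935). The second Cd22 probe set (1419769_PM_at) read 9.91 and 9.99 in WT against 8.44 and 8.68 in TG. Its difference was larger, -1.39 (SE 0.13, 2.62-fold, limma adjusted p = 0.0897), so both probe sets had the same direction but gave different sizes.

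Siglecg (1435955_PM_at), whose product restrains calcium signalling above all in B-1 cells, read 9.23 and 9.24 in the WT mice and 7.78 and 8.13 in the TG mice. It showed the greatest difference among the 8 brightest probe sets, -1.28 (SE 0.15, 2.43-fold lower, limma adjusted p = 0.107). TG mouse 1 lay 0.35 below TG mouse 2, a wider gap than for Cd22, and both were more than 1 unit below the WT mice, at a separation of 1.09.

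Cd72 (1426112_PM_a_at), a co-receptor that also recruits SHP-1, was close to Cd22 in its pattern. It read 10.64 and 10.67 in WT and 9.68 and 9.85 in TG. The difference was -0.89 (SE 0.11, 1.85-fold lower, limma adjusted p = 0.114), with the groups 0.79 apart.

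Ptpn6 (1460188_PM_at), the phosphatase on which these receptors converge, differed least among the 6 lower genes. Its signals were 10.72 and 10.77 in WT and 10.09 and 10.33 in TG. The difference of -0.53 (SE 0.12, 1.45-fold lower, limma adjusted p = 0.222) left a separation of 0.39 between the groups. SHP-1 is made in all blood cell lineages, unlike CD22 and CD72, which are largely B cell proteins.

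Both Fc receptor-like genes were lower in TG on every probe set. Fcrl1 (1425062_PM_at) read 9.64 and 9.71 in WT and 8.24 and 8.69 in TG, a difference of -1.22 (SE 0.18, 2.32-fold lower, limma adjusted p = 0.137). Its other probe set (1425063_PM_at) differed by -1.07 (SE 0.13, limma adjusted p = 0.11), from 9.09 and 9.14 to 7.92 and 8.17. The groups were separated by more than 0.9 on both.

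Fcrla was measured by 3 probe sets that agreed in direction but not in size. The brightest (1419907_PM_s_at) read 9.01 and 9.10 in WT and 7.88 and 8.35 in TG, a difference of -0.94 (SE 0.18, 1.92-fold lower, limma adjusted p = 0.187). The second (1425802_PM_a_at) differed by -1.14 (SE 0.18). The third (1419908_PM_at) differed by -1.72 with an SE of 0.49, because TG mouse 1 read 5.11 and TG mouse 2 read 6.59, against 7.61 and 7.52 in WT. The size of the Fcrla difference therefore depended on the probe set, and the third is the least precise value of the 14.

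Cd5 and Lair1 did not share the lower signals. Cd5 (1418353_PM_at) read 9.35 and 9.32 in WT and 9.48 and 9.63 in TG, a difference of 0.22 (SE 0.11, limma adjusted p = 0.442) whose 95% interval ran from -0.06 to 0.51. That interval includes no difference but not a fall of the size seen for Cd22. CD5 is abundant on T cells, and the median of 13 T cell genes in these arrays was 0.33.

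Lair1, a collagen receptor of lymphocytes and myeloid cells, was measured by 3 dimmer probe sets. The brightest (1444040_PM_at) read 5.64 and 5.68 in WT and 5.79 and 6.43 in TG, so that TG mouse 1 lay only 0.10 above the nearer WT mouse. Its difference was 0.45 (SE 0.23, 95% interval -0.16 to 1.05, limma adjusted p = 0.468). The second (1430447_PM_a_at) differed by 0.41 (SE 0.14, limma adjusted p = 0.323) and the third (1439067_PM_at) by 0.14 (SE 0.10, limma adjusted p = 0.587). All 3 were higher in both TG arrays, with no call on any of them.

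**Figure D2:**
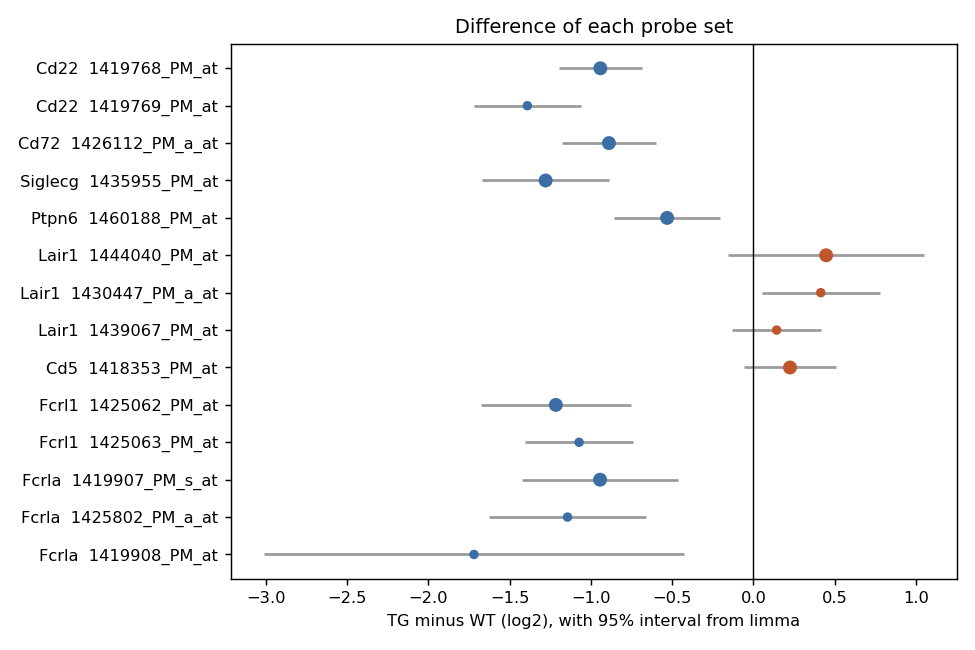
TG minus WT difference in log2 units (horizontal axis) of the 14 probe sets (vertical axis), with the limma 95% interval as a grey bar; large points mark each gene's brightest probe set, blue for lower and orange for higher. The 10 probe sets of Cd22, Cd72, Siglecg, Ptpn6, Fcrl1 and Fcrla lie below 0 with their intervals, and the intervals of 3 of the 4 probe sets of Lair1 and Cd5 include 0.

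The transgenic mice differed from each other in the same direction across the lower genes. TG mouse 1 had the lower signal on all 10 probe sets of the 6 lower genes, and the gap between the TG mice at the brightest probe set ran from 0.06 for Cd22 to 0.47 for Fcrla. The array of TG mouse 1 as a whole had a lower median (4.48, against 4.59 to 4.61 on the other 3) and a lower upper quartile (6.13, against 6.51 to 6.55), and a higher excess of the 3' over the middle probe set of beta-actin (0.47, against 0.14 to 0.16). Without TG mouse 1 the 6 genes were still lower, by 0.41 (Ptpn6) to 1.10 (Siglecg), and without TG mouse 2 by 0.65 (Ptpn6) to 1.46 (Siglecg). Lair1 differed by 0.77 without TG mouse 1 and by 0.13 without TG mouse 2, so the size of its difference depended on which TG mouse was kept.

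Described by their profile over the 4 arrays, the members fell into a few neighbours. As Euclidean distance between centred log2 profiles, Cd22 and Cd72 lay 0.093 apart and Siglecg and Fcrl1 0.102, whereas Siglecg and Lair1 lay 1.74 apart. The 3 genes nearest to Cd22 among 12023 searched were Noxred1, Ryr1 and Swap70 (distance 0.0268 to 0.0651), and those nearest to Cd72 were Etv5, Apobec1 and Napsa. Siglecg lay nearest to Cxcr5, the follicle-homing receptor, Ndrg1 and Iglv1 (0.0533 to 0.0751), and Fcrl1 to Haao, Itprip and Ebf1, a B cell lineage factor. Fcrla lay nearest to Serpinb1a, Scaper and Slc15a4, and Ptpn6 to Plcl2, As3mt and Gm5817. Lair1 lay nearest to Ly6k, P2ry10b and Ubxn2b, and Cd5 to Alg3, Ccdc85b and Wdr70. With 4 arrays in 2 groups, such distances mostly reflect the size of the group difference and the gap between the TG mice.

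The number of members that passed the test depended on how the arrays were scaled. After quantile normalization 5 of 8 were lower past the limma threshold, where 1.04% of all probe sets passed as lower. On that scale Cd22 fell by 0.84, Cd72 by 0.76, Siglecg by 1.13, Fcrl1 by 1.06 and Fcrla by 0.78, with limma adjusted p from 0.0157 for Siglecg to 0.0376 for Fcrla. Ptpn6 then differed by -0.41 (limma adjusted p = 0.0927), Cd5 by 0.36 (adjusted p = 0.144) and Lair1 by 0.63 (adjusted p = 0.0835). After centring each array on its median 4 of 8 passed as lower (0.944% of all probe sets), and as the mean of all probe sets of a gene Cd22 alone passed (0.0702% of 17097 genes). At an adjusted p of 0.1 in the deposited values 1 member, Cd22, passed as lower (0.164% of all probe sets). Without TG mouse 1, when the lone TG array is assumed to vary like the WT arrays, 6 members passed as lower and Lair1 as higher (5.16% and 4.03% of all probe sets), and without TG mouse 2 6 passed as lower (32.9%). Without WT mouse 1, and likewise without WT mouse 2, no member passed limma, with 5 of 8 at an unadjusted p under 0.05 in each case (1631 and 1576 of all 45037 probe sets).

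The B cell markers of these arrays were lower by about as much as Cd22. All 14 measured of 15 listed marker genes were lower in TG without overlap, with a median of -0.93, none past the limma threshold and 13 with an unadjusted p under 0.05. Their summed linear signal was 18825 and 19713 in WT and 10088 and 11175 in TG. Among them Ms4a1, which encodes CD20, differed by -0.36 (SE 0.10), Cd79a by -1.41 (SE 0.26) and Cd79b by -1.01 (SE 0.19), the last 2 being the signalling chains of the B cell receptor.

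The members were therefore also measured relative to the mean of these 14 markers on each array, none of which is a member. On that scale Cd22 read 1.35 and 1.34 above the markers in WT and 1.38 and 1.23 in TG, so the groups overlapped and the difference was -0.04 (SD 0.01 in WT and 0.11 in TG, n = 2 each). Cd72 differed by 0.01 and Fcrla by -0.04, with overlap in both. These are the brightest probe sets, and the dimmer ones gave other sizes. The second Cd22 probe set (1419769_PM_at) differed by -0.49 (limma adjusted p = 0.00474). The other Fcrla probe sets, 1425802_PM_a_at and 1419908_PM_at, differed by -0.24 and -0.82 (limma adjusted p = 0.126 and 0.0585). Siglecg, at 0.69 and 0.72 below the markers in WT and 1.16 and 1.01 below them in TG, was still lower, by 0.38 (limma adjusted p = 0.0192). Fcrl1 differed by -0.32 without overlap (limma adjusted p = 0.0522), and its second probe set (1425063_PM_at) by -0.17 (limma adjusted p = 0.19). Which members were level with the markers thus depended on the probe set. Only 0.318% of all probe sets were lower past the threshold on this scale, which moves most of the array up. Because 93% passed as higher, adjusted p-values on this scale lie close to unadjusted ones. The unadjusted limma p was 0.0173 for Siglecg and 0.0488 for Fcrl1, so these values carry little correction for the number of tests. The 14 markers themselves differed in size, from -0.34 (Pax5) to -1.41 (Cd79a) in the deposited values. Siglecg (-1.28) and Fcrl1 (-1.22) lay within that range. The Pax5 probe set at its low end was dim (4.33 to 4.91), and the next smallest fall was that of Ms4a1 (-0.36).

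Ptpn6, Cd5 and Lair1 were higher relative to the B cell markers, by 0.37, 1.12 and 1.35 (limma adjusted p = 0.0174, 0.000677 and 0.000677). This scale raises the median of all probe sets to 0.86, and 93% of them passed as higher, so these 3 calls are shared with most of the array. Set against that median, Ptpn6 lay below it and Cd5 and Lair1 above it, as in the deposited values.

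**Figure D3:**
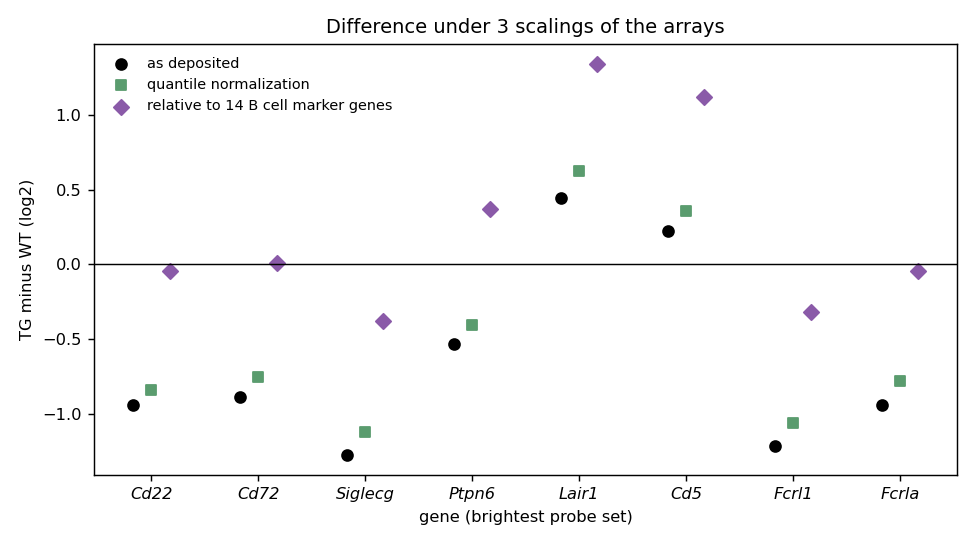
TG minus WT difference in log2 units (vertical axis) of each gene's brightest probe set (horizontal axis) in the deposited values (black circles), after quantile normalization (green squares) and relative to the mean of 14 B cell marker genes on each array (purple diamonds). Cd22, Cd72 and Fcrla lie at -0.04 to 0.01 relative to the markers, Siglecg and Fcrl1 at -0.38 and -0.32, and Ptpn6, Cd5 and Lair1 at 0.37 to 1.35.

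Marker genes of other cells were also measured, and most but not all had higher signals in TG. Of 13 measured T cell genes 10 were higher and 1 lower without overlap, with a median of 0.33, none past the threshold and 8 higher and 1 lower at an unadjusted limma p under 0.05. Their summed signal was 13281 and 13560 in WT and 16003 and 18223 in TG, so T cell RNA was present in both groups of these B cell preparations. The CD3 chains Cd3e, Cd3d and Cd3g differed by 0.18, 0.29 and 0.18. The list ran from -0.79 for Cd4, the 1 gene lower without overlap, to 1.14 for Cd8a, so its co-receptor genes differed in opposite directions. The part of T cell RNA in the Cd5 signal was not tested.

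Lair1 is also expressed in myeloid cells. Over all probe sets 17.7% were higher and 31.4% lower without overlap. Of 12 monocyte, macrophage and dendritic cell genes 7 were higher and 3 lower without overlap (median 0.10). None passed the threshold, with 3 higher and 1 lower at an unadjusted limma p under 0.05. Lyz2, Csf1r and Cd14, the first 3 of the list, differed by 0.53, 0.14 and 0.97, whereas the 3 genes lower without overlap were Itgax (-0.50), Flt3 (-0.36) and Mpeg1 (-0.06). The summed signal was 1884 and 1850 in WT and 2226 and 2547 in TG. Neutrophil genes were higher by a median of 1.09 over 13 genes, 11 of them without overlap. The 2 past the limma threshold were Chil3 (3.83) and Ngp (2.77). S100a8 and S100a9 differed by 2.58 and 2.53 (limma adjusted p = 0.0935 and 0.0794). Csf3r (0.06) overlapped between the groups, and Fcnb (-0.17) was lower. The summed neutrophil signal was 457 and 458 in WT and 1727 and 2367 in TG. Natural killer cell genes had a median of 0.28 (9 genes, 5 higher and 2 lower without overlap). Their summed signal was 2805 and 2881 in WT and 2960 and 3625 in TG. Ncr1, Klrb1c and Klrd1 differed by 0.06, 0.04 and 0.28, and the list ran from -0.96 for Gzma to 1.17 for Eomes. Cd4, Cd8a, Itgax, Flt3, Mpeg1, Chil3, Csf3r, Fcnb, Gzma and Eomes are named because their values were seen. The part of these cells in the Lair1 and Ptpn6 signals was not tested.

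CD5 and Siglec-G are both prominent on B-1 cells, and the genes of B-1 and marginal zone B cells gave no common direction. Of 10 genes 4 were lower and 2 higher without overlap (median -0.12), with none past the limma threshold and 3 lower and 2 higher at an unadjusted p under 0.05. Over all probe sets 31.4% were lower and 17.7% higher without overlap, and 39.8% were lower among those with a mean above 4.10. The counts of this list lie near these shares. Cd9 differed by -0.20, Zbtb32 by -0.42 and Bhlhe41 by -0.03. Besides Zbtb32, the genes lower without overlap were Plac8 (-0.86), Cd1d1 (-0.68) and Dtx1 (-0.61). The 2 higher were Ctla4 (0.54) and Spn (0.48). These 2 and the lower genes other than Zbtb32 are named because their values were seen. The part of other cells, such as T cells, in these signals was not tested. Plasma cell genes had a median of -0.34 over 7 genes, with 4 lower and 1 higher without overlap. Prdm1, which encodes the plasma cell regulator Blimp-1, differed by 0.43, Xbp1, of the secretory programme, by 0.03 and Jchain by -0.65.

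Other genes of the inhibitory pathway went in both directions. Measured were 31 of 34 listed genes (other receptors, adaptors, phosphatases, kinases and ligands). Of these, 15 were lower and 4 higher without overlap (31.4% and 17.7% of all probe sets), with a median of -0.21. None passed the limma threshold, and 11 lower and 3 higher had an unadjusted p under 0.05. Dok3, an adaptor that brings the lipid phosphatase SHIP to the receptor, read 8.14 and 8.25 in WT and 6.73 and 6.99 in TG (difference -1.33, SE 0.13, limma adjusted p = 0.0935). Cd24a, a glycoprotein that Siglec-G binds, differed by -0.67 (SE 0.10) and Lax1, a membrane adaptor that limits lymphocyte activation, by -0.68 (SE 0.11). Ptpn22, a phosphatase that restrains antigen receptor kinases in T and B cells, was higher, from 7.83 and 7.93 to 8.68 and 8.52 (difference 0.72, SE 0.11, limma adjusted p = 0.149). After quantile normalization 3 of the 31 were lower and 1 was higher past the limma threshold: Dok3, Ceacam1 and Fcgr2b (-1.14, -0.73 and -0.86), and Lilrb4a (1.39), of which the last 3 are named because their values were seen. On that scale 1.04% of all probe sets passed as lower. Fcgr2b is the inhibitory IgG receptor of B cells, Ceacam1 an adhesion receptor with inhibitory motifs, and Lilrb4a an inhibitory receptor mainly of myeloid cells.

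Ligands and partners of the members were measured as well. St6gal1, the sialyltransferase that makes the ligand of CD22, differed by -0.21 (SE 0.19), with overlap between the groups. Sema4d, which encodes CD100, the ligand of CD72, differed by -0.27 (SE 0.17), Inpp5d, which encodes SHIP, by -0.43 (SE 0.18), and Ptpn11, the relative of Ptpn6, by -0.33 (SE 0.24) with overlap. These 4 were chosen for their role beside the members after their values were seen.

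Genes of the activating side of the B cell receptor were mostly lower too. Of 19 measured genes 16 were lower without overlap (31.4% of all probe sets) and none was higher, with a median of -0.70. None passed the limma threshold in the deposited values and 11 had an unadjusted p under 0.05. After quantile normalization 7 were lower past the limma threshold (1.04% of all probe sets). Blk, a Src-family kinase, differed by -1.31 (SE 0.12), and Btk, a kinase that activates phospholipase C gamma, by -1.07 (SE 0.10). Pik3ap1 and Blnk, the adaptors to PI3 kinase and to phospholipase C, differed by -0.91 and -0.85 (limma adjusted p from 0.0935 for Blk to 0.129 for Blnk over these 4). Of the 19 genes, 6 are also on the B cell marker list, and 1 of the 31 inhibitory genes is, Cd37.

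**Figure D4:**
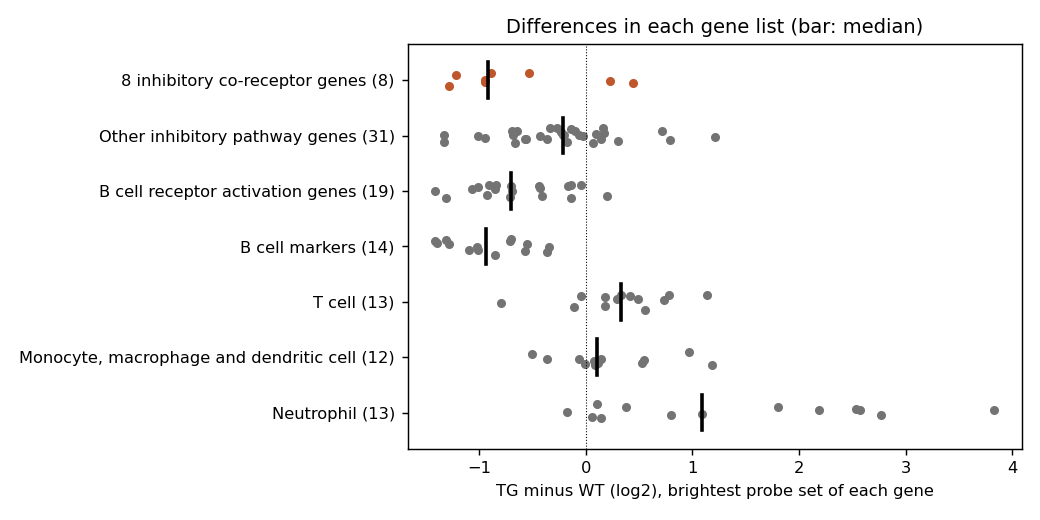
TG minus WT difference in log2 units (horizontal axis) of each gene's brightest probe set in the 8 inhibitory co-receptor genes (orange) and 6 gene lists (grey; number of genes in parentheses), with a black bar at each median. The medians are -0.92 for the 8 genes, -0.21 for the other inhibitory genes, -0.70 for the activating genes and -0.93 for the B cell markers, against 0.33, 0.10 and 1.09 for T cell, monocyte and neutrophil genes.

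The sequence before the transcription start was read for all 8 members, because B cell factors are known to act there. The 4 shown, 3 that were lower and 1 that was not, are those that held GAGGAAGT or CCCNNGGG. Siglecg, Ptpn6, Lair1 and Fcrla held neither. RefSeq promoters (GRCm38.p6) matched all 8 members, in 9 entries, and the 250 bases before the start were searched on both strands for 4 motifs, chosen with these promoters in view. GAGGAAGT, a site of Ets factors such as PU.1, was found in Cd72, Fcrl1 and Cd5 and in 2.44% of all 32851 promoters. CCCNNGGG, the core bound by the B cell factor EBF1, was found in Cd22 and in 11.8% of all. CAGGTG, an E box, was found in Cd22, Cd5, Fcrla and Ptpn6 and in 17.2% of all, and the octamer ATGCAAAT in none of the members and in 1.60% of all. Cd72 and Fcrl1, which were lower, and Cd5, which was not, hold GAGGAAGT. Whether any motif bears on the differences was not tested. In the sequences below, capitals mark GAGGAAGT or its reverse complement and CCCNNGGG, which do not overlap each other. A match describes these letters and no binding was measured. Cd22 lies at chr7:30879029-30879278 on the minus strand, Cd72 at chr4:43454627-43454876 on the minus strand, Fcrl1 at chr3:87376137-87376386 on the plus strand and Cd5 at chr19:10738975-10739224 on the minus strand.
Cd22: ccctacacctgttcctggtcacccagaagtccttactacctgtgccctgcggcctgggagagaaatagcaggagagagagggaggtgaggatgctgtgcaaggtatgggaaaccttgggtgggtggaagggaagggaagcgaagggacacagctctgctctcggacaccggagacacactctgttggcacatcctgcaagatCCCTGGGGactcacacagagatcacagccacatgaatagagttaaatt
Cd72: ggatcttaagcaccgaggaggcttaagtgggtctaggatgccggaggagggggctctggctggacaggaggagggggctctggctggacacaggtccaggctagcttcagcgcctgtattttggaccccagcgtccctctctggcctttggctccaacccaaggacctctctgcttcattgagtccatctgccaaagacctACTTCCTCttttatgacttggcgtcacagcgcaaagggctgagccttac
Fcrl1: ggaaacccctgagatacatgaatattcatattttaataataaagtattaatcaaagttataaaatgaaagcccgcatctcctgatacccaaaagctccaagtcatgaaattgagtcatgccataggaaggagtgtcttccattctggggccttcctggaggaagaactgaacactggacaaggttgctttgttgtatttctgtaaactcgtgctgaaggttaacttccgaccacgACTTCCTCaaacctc
Cd5: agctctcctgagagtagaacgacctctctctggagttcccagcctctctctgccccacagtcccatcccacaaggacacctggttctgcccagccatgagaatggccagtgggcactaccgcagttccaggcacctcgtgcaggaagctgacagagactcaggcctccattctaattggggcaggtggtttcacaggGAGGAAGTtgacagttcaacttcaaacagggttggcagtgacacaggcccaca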

How the data were processed

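The deposited table holds 1 value per probe set and array, made by the authors on a log2 scale; the scale was read from the values (2.02 to 13.03), and the background correction, normalization and probe summary are not given in the sources used here. Per the labels' protocols, RNA was labelled with a 3' IVT kit. Titles gave the groups. Symbols came from the platform annotation (28898 probe sets with 1 symbol), and 104 control probe sets were left out. Two-sided tests of TG against WT used limma 3.58.1 (R 4.3.3) with 2 residual and 2.69 prior degrees of freedom, and p-values were adjusted over all 45037 probe sets (Benjamini-Hochberg, 0.05). The fit was tested on simulated data. With 2 against 2, an exact permutation test cannot give a two-sided p under 0.333. Mice share numbers 1 and 2 across groups, but deviations of same-numbered mice correlated at 0.01, so no block was used. P-values measure the spread between 2 mice per group. Linear sums are of 2 to the power of the log2 signal.

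The members and gene lists were chosen with earlier results of these data known. Named were the 8 members, the 4 genes of smallest p in each of 2 pathway lists, the first 3 measured markers of each cell type and the 3 nearest profiles. Alternatives were quantile normalization, median centring, centring on B cell markers, a filter above the 40th percentile (4.10), trended and robust eBayes, the mean of all probe sets, another threshold, the replicate block and leaving out each array. Pseudocounts did not apply to log2 values. Figures were drawn with matplotlib 3.10.9.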

Additional observations from a re-analysis of the deposited data

How the results depend on the processing

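The direction of all 8 genes was the same under every alternative except centring on B cell markers, where Cd72 differed by 0.0108 and Ptpn6 by 0.37; that scale moves every gene up by the difference of the markers. The number of members past the limma threshold was 0 in the deposited values. It was 5 after quantile normalization and 4 after median centring, all lower in TG. After centring on B cell markers it was 4, with Siglecg lower and Ptpn6, Cd5 and Lair1 higher. On that scale adjusted p-values lie close to unadjusted ones. As the mean of all probe sets it was 1 and at an adjusted p of 0.1 it was 1, in each case Cd22, lower. Leaving out 1 array gave 0 to 7 members, with the lone array of a group assumed to vary like the other group. The median of the 8 genes, -0.92, was -0.0156 after centring on B cell markers and ran from -0.97 to -0.76 when 1 array was left out. Over all probe sets, 21 passed as deposited, 870 after quantile normalization, 614 after median centring, 42008 after centring on B cell markers, 51 with the filter, 33 as gene means, 139 at an adjusted p of 0.1, and 0 to 19110 with 1 array left out (without WT mouse 1 or WT mouse 2 none passed limma, with 1631 and 1576 at an unadjusted p under 0.05). With the replicate block 15 probe sets and 0 members passed limma, so the pairing changed no call among the members. In that fit 6 members, and 5786 of all 45037 probe sets in either direction, had an unadjusted limma p under 0.05. The causes were not tested. Precision is limited by 4 arrays and by the lack of detection calls for the dim Lair1 probe sets.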
